A study of Mus musculus with 3 samples.

Results

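Aminoacyl-tRNA synthetases are the enzymes that attach each amino acid to its transfer RNAs. They were examined as a set of 36 genes, 20 for cytosolic enzymes and 16 for mitochondrial enzymes whose symbols end in 2, out of 55536 annotated genes. Members were taken by gene symbol; 35 matched directly and Mars1, listed as Mars in the files, matched by a RefSeq synonym. The RNA came from mouse bone marrow-derived macrophages of the C57BL/6J strain, treated with lipid A, the Toll-like receptor 4 agonist of lipopolysaccharide, at 100 ng/ml for 60 min. Cytosolic RNA was depleted of ribosomal RNA, and the labels number the 3 libraries as biological replicates 1, 2 and 3 of this 1 group. No unstimulated cells and no other fraction were analysed here, so every value is a level in stimulated cytosol. No label gives a separate animal for each culture; the p-values reported rest on the differences among these 3 libraries, and those may be technical.

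Mitochondria have their own ribosomes, and their synthetases are nuclear-encoded proteins translated outside and imported. For most amino acids a separate gene serves that compartment. Gars and Kars, for glycine and lysine, each make both forms from 1 gene. In the mitochondrion glutaminyl-tRNA is made indirectly: Ears2 charges the tRNA with glutamate and an amidotransferase converts it, so Qars has no mitochondrial counterpart. In the cytosol of animal cells several synthetases are held with scaffold proteins in the multisynthetase complex. The enzymes fall in 2 unrelated structural classes, I and II.

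The libraries held 64110863, 72057046 and 69345880 expected counts in replicates 1, 2 and 3, and members held 31 to 8358 counts per library. The signal recognition particle RNA genes Rn7s1 and Rn7s2 took 57.1, 69.6 and 62.2% of all TPM (a length-scaled abundance that sums to the same total in each library). TPM was highest in replicate 1 for 35 of the 36 members and lowest in replicate 2 for 35, so each level was set against the median protein-coding gene of its own library, at 9.08, 5.76 and 6.86 TPM. All 8 macrophage markers were called above that gene, against 26.3% of all tested genes, with Lyz2, the macrophage lysozyme, at 7402, 3458 and 4236 TPM. The 20 markers of neutrophils, lymphocytes, erythroid and mast cells, and stroma summed to 3.34, 2.35 and 2.86 TPM, most of it the neutrophil granule gene Ngp at 2.27, 1.71 and 1.77 TPM.

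The median cytosolic synthetase message stood close to the typical expressed gene, and the median mitochondrial one well under it. The median cytosolic gene had 10.9, 6.84 and 8.74 TPM in replicates 1, 2 and 3, and the median mitochondrial gene 1.70, 1.17 and 1.39 TPM. Over the libraries the cytosolic median was 0.28 ± 0.05 over the library's median gene in log2(TPM + 0.1), and the mitochondrial median was at -2.26 ± 0.08 (SD, n = 3). The cytosolic minus mitochondrial difference was 2.62, 2.45 and 2.57 in the 3 libraries, on average 2.55 ± 0.09 on that scale (SD, n = 3), or 5.84-fold. As bulk RNA, a level does not tell apart fewer cells with a message and less message per cell.

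Both lists were wide and they overlapped. Mean TPM spanned 3.39 to 28.5 among cytosolic genes, an 8.41-fold range, and 0.117 to 6.44 among mitochondrial genes, a 55.2-fold range. The highest 13 cytosolic genes lay above every mitochondrial gene, while 7 lay under the highest mitochondrial gene, Fars2. This count depended on the quantification. In the second deposited one, described below, Lars2 was the highest mitochondrial gene at a mean of 7.53 TPM. Only Nars, Sars, Qars and Dars lay above Lars2 there. All cytosolic genes together held 0.0882, 0.0829 and 0.0909% of the counts assigned to genes, and the mitochondrial genes 0.0157, 0.0136 and 0.0157%. The summed TPM of the cytosolic list was 5.95, 5.74 and 5.83 times that of the mitochondrial list.

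Each gene with a mean of at least 1 TPM was tested against a band of 2-fold around the library's median gene (limma treat, Benjamini-Hochberg adjustment over 9123 protein-coding genes at 0.05). Of the 20 cytosolic genes, 4 were called above the band and 0 below it. Over all tested genes 26.3% were called above and 24.5% below, so the cytosolic share above was near the background. At an unadjusted p under 0.05 the counts were also 4 and 0. Of the 16 mitochondrial genes, 5 were called below and 0 above, also at an unadjusted p under 0.05; 5 more were not called and 6 under 1 TPM were not tested. All 6 untested genes are mitochondrial, so a count over the 10 tested ones leaves out the lowest. Among the 20 cytosolic genes 12 exceeded the library's median gene in all 3 libraries and 8 were under it in all 3, whereas 15 of the 16 mitochondrial genes were under it in all 3.

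**Figure D1:**
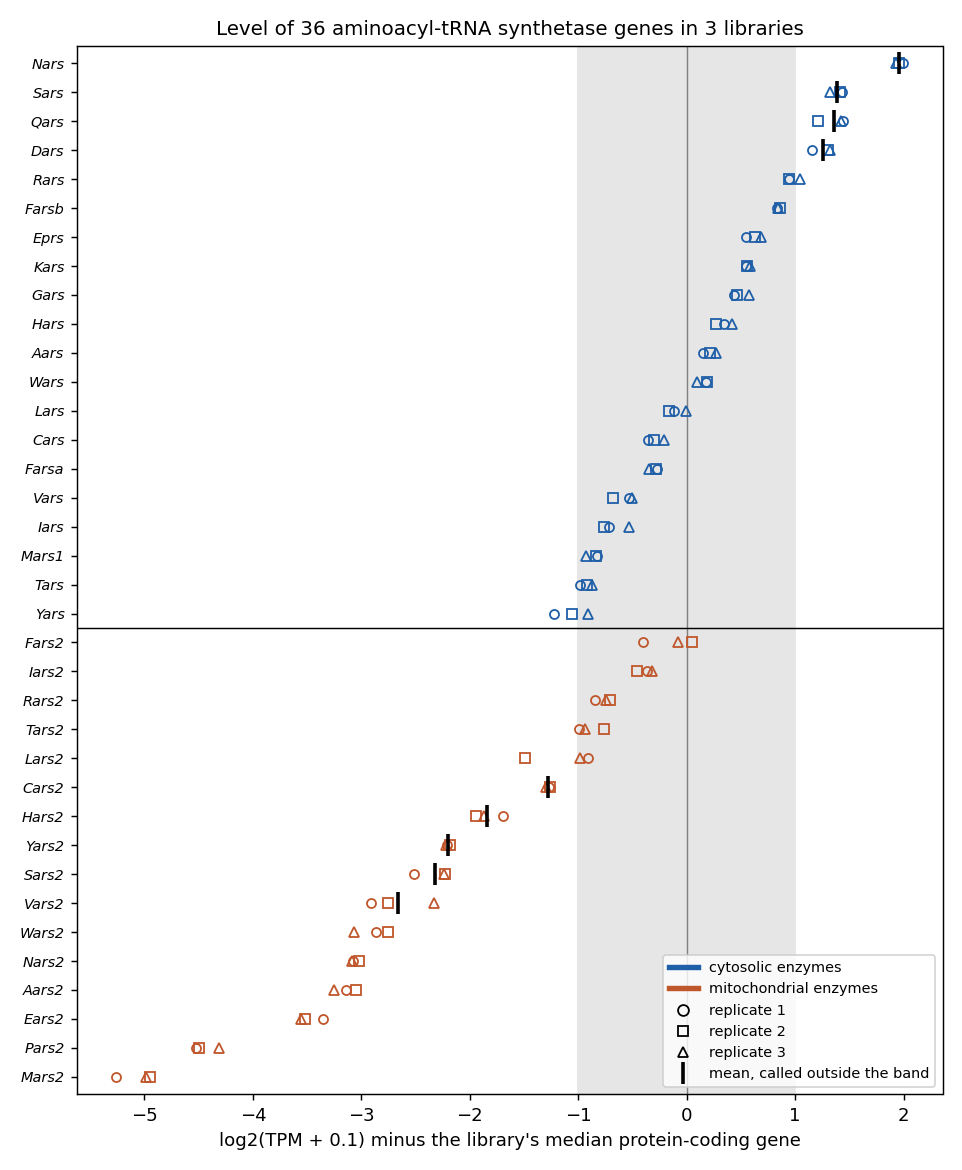
Level of each gene in each library, as log2(TPM + 0.1) minus the library's median protein-coding gene, with the 2-fold band in grey and a black bar at the mean of genes called outside it. Cytosolic genes run from 1.96 for Nars to -1.06 for Yars, and mitochondrial genes reach further to the left, with Mars2 and Pars2 lowest.

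These calls depended on the quantification and on the filter. With the second deposited quantification (columns named as kallisto writes them; 24.1% of 7720 genes called above and 18.5% below) the cytosolic list had 2 genes above and 2 below, and the mitochondrial list 0 above and 2 below. Only 6 mitochondrial genes were tested there: Hars2, Sars2, Vars2 and Yars2 fell under the minimum of 1 TPM, Cars2 stayed called and Tars2 was called in addition. The middle cytosolic genes, Hars and Aars, were at -0.06 and -0.22 there, just under the median gene. The minimum mean TPM sets which gene is the median: with no minimum (34.7% above and 38% below) 13 cytosolic genes were called above, and with a minimum of 5 TPM (22.3% above and 8.74% below) none was. With TPM rescaled over nuclear protein-coding genes (28.6% above and 29.2% below) 6 cytosolic genes were called above and 8 of 14 tested mitochondrial genes below; with FPKM (27.3% above and 26.7% below) 5 were called above and 7 of 13 below.

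The multisynthetase complex holds 8 of the cytosolic genes. Their median was 10.9 ± 2.3 TPM, and that of the 12 other cytosolic genes 8.22 ± 1.80 TPM (SD, n = 3). Qars, which charges glutamine, had 24.9, 13.5 and 18.6 TPM in replicates 1, 2 and 3. Its log2 level against the median gene was 1.36 ± 0.07 (SE, n = 3; limma adjusted p = 0.00204). Dars, for aspartate, had 20.3, 14.4 and 17.2 TPM, a level of 1.26 ± 0.06 (SE, n = 3; limma adjusted p = 0.00604). Both were high in all 3 libraries, and neither was called with the second quantification.

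Rars, for arginine, came next in the complex at 17.6, 11.2 and 14.2 TPM, on average at 0.98 on the log2 scale and thus just within the band. Eprs, a single protein that charges both glutamate and proline, had 13.3, 8.95 and 11.1 TPM. Kars, for lysine, had 13.3, 8.50 and 10.3 TPM. These genes were above the median gene in every library without being called. The other complex members stood lower: Lars, for leucine, averaged 6.76 ± 1.62 TPM, Iars, for isoleucine, 4.51 ± 1.07 TPM, and Mars1, for methionine, 3.94 ± 1.00 TPM (SD, n = 3). The members of 1 complex thus differed by 4.82-fold in mean TPM.

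The 3 scaffold genes of the complex were not at 1 level either. Aimp1 had 11.7, 7.23 and 8.53 TPM, close to the complex median, and was not called. Aimp2 had 1.77, 1.28 and 1.93 TPM and Eef1e1 had 2.57, 2.10 and 2.30 TPM. Aimp2 and Eef1e1 were called below the median gene, at -2.05 and -1.58 on the log2 scale (limma adjusted p = 0.000106 and 0.000682).

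Outside the complex, Nars, which charges asparagine, was the highest of all 36 genes. It had 36.5, 22.7 and 26.4 TPM, from 8142, 8294 and 8358 counts, and stood 1.96 ± 0.06 above the median gene (SE, n = 3; limma adjusted p = 7.36e-06). Sars, for serine, followed with 24.6, 15.5 and 17.3 TPM, at 1.39 ± 0.06 (SE, n = 3; limma adjusted p = 0.000598). Nars and Sars were the only cytosolic genes called above with the second quantification as well.

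Phenylalanyl-tRNA synthetase is built of 2 kinds of subunit, and their messages were unequal. Farsb, for the beta subunit, had 16.3, 10.6 and 12.4 TPM, and Farsa, for the catalytic alpha subunit, 7.50, 4.71 and 5.38 TPM. Farsb was the higher in every library, and the ranges over libraries did not overlap. Gars had 12.3, 7.96 and 10.3 TPM. Wars, the tryptophan enzyme and in many cell types an interferon-induced gene, had 10.3, 6.59 and 7.34 TPM, at 0.16 on the log2 scale and not called.

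The rest of the cytosolic genes lay between 3.39 and 9.23 TPM on average and none was called. They were Hars for histidine, Aars for alanine, Cars for cysteine, Vars for valine, Tars for threonine and Yars for tyrosine. Yars was lowest at 3.84, 2.72 and 3.61 TPM, and Tars next at 4.53, 2.99 and 3.70 TPM. Grouped by structural class, with Eprs counted in class I, the 10 class II genes had a median of 10.4 ± 2.3 TPM and the 10 class I genes 6.31 ± 1.41 TPM (SD, n = 3). Of the called genes Nars, Sars and Dars are class II and Qars is class I.

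Among the mitochondrial enzymes, 5 genes were called below the median gene. Vars2, for valine, was lowest of these at 1.12, 0.77 and 1.28 TPM, -2.67 ± 0.13 on the log2 scale (SE, n = 3; limma adjusted p = 2.33e-05). Sars2 had 1.51, 1.15 and 1.38 TPM, at -2.32 on the log2 scale. Yars2 had 1.89, 1.19 and 1.39 TPM, at -2.20. All 3, and also Hars2 and Cars2, lay under the band in every library. Hars2 had 2.73, 1.42 and 1.80 TPM, at -1.84, and Cars2 3.70, 2.35 and 2.73 TPM, at -1.28 (limma adjusted p from 7.98e-06 to 0.00354 over these 4). The call of Cars2 ended at -0.95 with TPM rescaled over nuclear protein-coding genes (limma adjusted p = 1), with a pseudocount of 1 (adjusted p = 0.311), with FPKM (adjusted p = 0.0576) and with no minimum, at 0.08 (adjusted p = 1). With no minimum the calls of Hars2, Sars2 and Yars2 ended too, at -0.48, -0.96 and -0.84. Of the 5 genes only Vars2 stayed called there, at -1.305 (limma adjusted p = 0.0203).

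Further down were the 6 genes under 1 TPM. Mars2, for methionine, was lowest at 0.14, 0.09 and 0.12 TPM, from 138, 143 and 175 counts. Its only annotated transcript is 11294 bases long, against a RefSeq gene span of 2882 bases, so its TPM rests on a length 3.92 times that span. Pars2, for proline, had 0.30, 0.16 and 0.25 TPM from only 31, 35 and 50 counts. Ears2 had 0.80, 0.41 and 0.49 TPM and Aars2 0.94, 0.61 and 0.63 TPM. All were measured above the limit that a count of 0 allows, which is 3 counts per library, here and below for counting error only. Nars2 averaged 0.777 ± 0.191 TPM and Wars2 0.887 ± 0.238 TPM (SD, n = 3).

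The upper end of the mitochondrial list reached the cytosolic levels. Fars2, a single-chain phenylalanine enzyme, had 6.86, 5.97 and 6.49 TPM, and Iars2 had 7.04, 4.16 and 5.47 TPM. Rars2 averaged 4.19 ± 0.77 TPM and Tars2 3.80 ± 0.63 TPM (SD, n = 3). Lars2 had 4.77, 1.98 and 3.42 TPM, with replicate 2 low. None of these 5 genes was called.

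A comparison by amino acid asks whether each cytosolic message exceeds that of its mitochondrial counterpart. In 14 of 17 pairs the cytosolic message was higher in all 3 libraries, and in 10 of them by over 1 on the log2(TPM + 0.1) scale in all 3. The median pair had a log2 ratio of 2.09. Pairs with the widest gap were Eprs over Pars2, with ratios of 44.3, 55.9 and 44.4 in replicates 1, 2 and 3, and Nars over Nars2, with 36.9, 36.6 and 36.6. The Nars to Nars2 ratio had the smallest spread of the 17, at 5.02 ± 0.04 on the log2 scale (SD, n = 3). Eprs stands in 2 pairs, with Ears2 and Pars2, and Fars2 in 2, so the pairs are not independent.

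In 3 pairs the gap was absent or turned round. Iars had 5.48, 3.36 and 4.70 TPM, against 7.04, 4.16 and 5.47 TPM for Iars2, so the cytosolic message was lower in every library, at -0.29 ± 0.07 on the log2 scale (SD, n = 3). Tars and Tars2 differed by -0.03 ± 0.12, with Tars higher in 2 libraries, and by 0.10 with the second quantification. Farsa and Fars2 differed by -0.16 ± 0.25, with Farsa higher in 1 library. By expected counts, which are not corrected for length, 16 of the 17 pairs were higher for the cytosolic gene, all but Iars with Iars2.

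**Figure D2:**
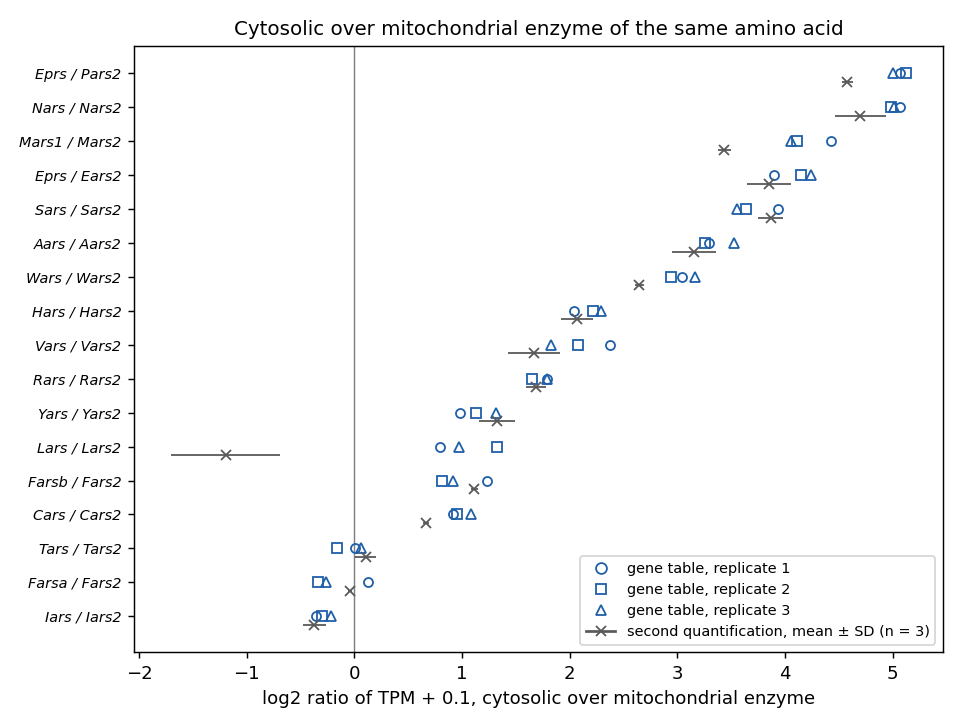
Log2 ratio of the cytosolic over the mitochondrial enzyme of the same amino acid in each library, with the mean of the second quantification beside it. Ratios run from 5.06 for Eprs over Pars2 to -0.29 for Iars over Iars2, and the Lars to Lars2 pair changes sign between quantifications.

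Further genes of tRNA charging lay outside the member list. Tarsl2, a threonyl-tRNA synthetase-like gene, was called below the median gene, as were Sepsecs and Pstk, which build selenocysteine on its tRNA. Their levels on the log2 scale were -2.56, -2.19 and -1.26 (limma adjusted p from 9.05e-06 to 0.0178 over these 3 genes).

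Lars2 was the member on which the quantifications differed most. In the gene table it had 4.77, 1.98 and 3.42 TPM, from 1568, 1084 and 1604 counts. In the second quantification it had 8.23, 4.66 and 9.71 TPM, from 6446, 3454 and 6688 estimated counts. The gene table's mean was 0.450 of the second quantification's mean for Lars2, whereas for the other 35 members it was 1.71 to 2.60 times as high. Over 9116 tested genes with both values the median ratio was 2.25, and 15 genes had a ratio under 1. Only 0.0878% of them had a ratio as low as that of Lars2.

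The quantifications also divided Lars2 differently among its transcripts. The gene table gave 82.7, 100 and 98.8% of the gene's TPM to Lars2-201, the coding transcript. The second quantification gave that transcript 19.3, 43.7 and 29.6%. It gave Lars2-209, annotated for nonsense-mediated decay, 47.5, 8.8 and 34.2%, and Lars2-205, an 889-base transcript with a retained intron, 32.7, 47.3 and 35.98%. With those values the Lars to Lars2 log2 ratio was -1.19 ± 0.51, against 1.03 ± 0.27 in the gene table (SD, n = 3). Which quantification is nearer to the true level was not tested.

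**Figure D3:**
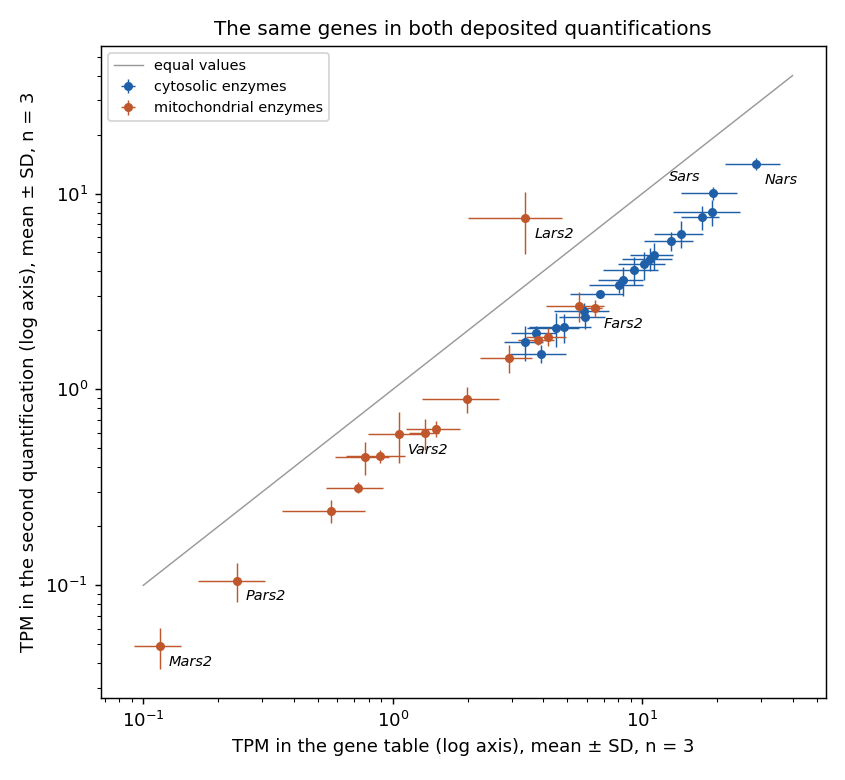
Mean TPM of each gene in the second quantification against the gene table, on log axes with SD bars. Lars2 is the one member above the line of equal values, and the other 35 lie under it along 1 band.

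Transcript composition was read from the share of a gene's TPM that each annotated transcript took. The 36 genes have 292 annotated transcripts, from 1 for Mars2 to 34 for Qars. Transcripts annotated as protein-coding took over 90% of the TPM in 24 genes, and under 70% in 4, Qars, Cars, Fars2 and Cars2. For 26 genes a single transcript took over 80%. The median coding share was 93.4% over members and 98.2% over the tested genes. The most abundant transcript was the same in both quantifications for 33 genes, with Iars, Lars2 and Pars2 the exceptions. For Iars the gene table placed 100, 98.9 and 99.4% on Iars-206, which the second quantification left at 0.0181% on average while placing 94.7% on Iars-201; both are coding.

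**Figure D4:**
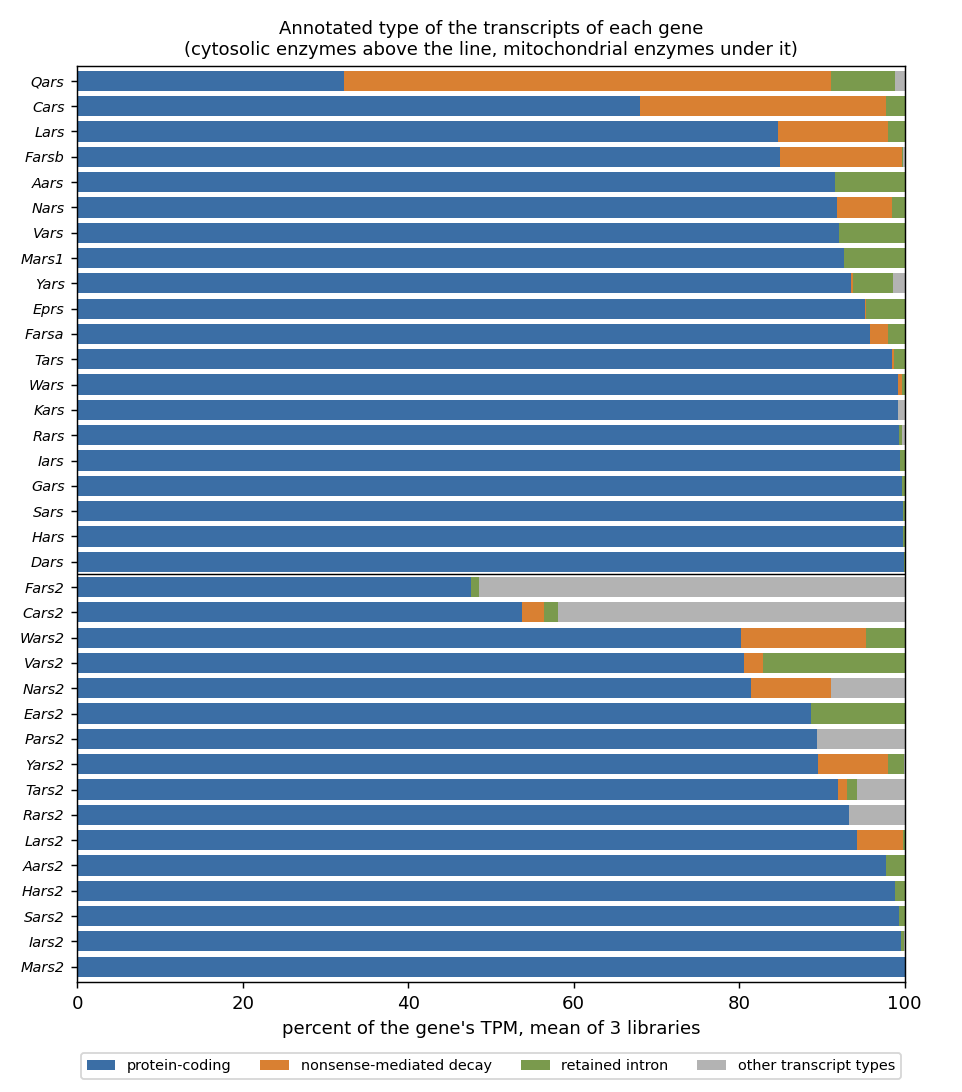
Percent of each gene's TPM in transcripts of each annotated type, mean of 3 libraries. Qars is the cytosolic gene with the smallest coding share, 32.2%, and Fars2 and Cars2 are the mitochondrial genes with the smallest.

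Kars shows how 1 gene can serve both compartments. In human cells the mitochondrial lysyl-tRNA synthetase arises when an alternative exon near the start is included, which supplies a new start codon and a targeting sequence. In the mouse annotation of GENCODE M21, Kars-201 starts translation in exon 1 and Kars-202 in an additional exon 2. Their first coding stretches, shown because they are what separates the 2 forms, lie on the minus strand of GRCm38 at chr8:112011210-112011268 and chr8:112008207-112008352. The start codon is in capitals.
Kars-201: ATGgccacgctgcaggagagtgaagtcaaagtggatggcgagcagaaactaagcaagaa
Kars-202: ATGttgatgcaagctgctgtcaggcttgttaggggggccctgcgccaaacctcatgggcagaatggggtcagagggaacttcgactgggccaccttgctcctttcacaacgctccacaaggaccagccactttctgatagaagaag

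The form that begins with the exon 2 sequence was the minor one. Kars-202 took 10.6, 11.7 and 12.6% of the Kars TPM in replicates 1, 2 and 3, from 244, 283 and 320 counts. Kars-201 took 83.2, 83.7 and 87.4%. The second quantification gave Kars-202 10.7, 12.2 and 15.7%. Both quantifications placed Kars-202 well under Kars-201 in every library. By contrast Gars, whose mitochondrial form is known to come from an upstream start codon in the same message, had a single main transcript, Gars-201, at 99.6, 100 and 99.6%, so its forms cannot be told apart by transcript.

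Qars was called above the median gene, but most of its TPM lay in transcripts annotated as targets of nonsense-mediated decay, the pathway that degrades messages with an early stop codon. These took 58.9% on average, and coding transcripts 32.2%. Qars-231 alone took 43.1, 55.9 and 45.4%, from 2121, 2444 and 2366 counts, whereas the coding Qars-203 took 22.0, 23.0 and 20.9%. The second quantification gave Qars-231 47.4, 60.2 and 58.0%. In 1.55% of the 9123 tested genes the most abundant transcript is annotated this way. How far short reads assign the 34 overlapping models correctly was not tested.

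Qars-231 and Qars-203 differ in 2 internal stretches, given here because they separate the transcripts. The annotated coding sequence is 2253 bases long in Qars-203 and 300 bases in Qars-231. Which stretch accounts for the shorter coding sequence was not tested. The stretch present only in Qars-203 is 49 bases at the end of exon 2, at chr9:108508482-108508530 on the plus strand of GRCm38. The stretch present only in Qars-231 is a 72-base exon, its exon 8, at chr9:108511139-108511210. Of these stretches only the 72-base exon is a whole number of codons, and the 49 bases are not.
Qars-203: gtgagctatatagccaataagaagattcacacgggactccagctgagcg
Qars-231: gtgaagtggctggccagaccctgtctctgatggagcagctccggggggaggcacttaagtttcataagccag

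In several other members a noncoding transcript took a sizeable part. Cars-211, a 558-base transcript annotated for decay, took 30.2, 28.7 and 30.5% of the Cars TPM from 67.5, 69.2 and 78.8 counts, and 20.9, 17.1 and 16.8% in the second quantification. Fars2-206, a 506-base processed transcript, took 29.0, 43.4 and 48.9% of the Fars2 TPM from 53.8, 115 and 118 counts, and 19.7, 33.3 and 35.3% in the second quantification. Coding transcripts made up 47.6% of the Fars2 TPM on average, so the Fars2 level above includes about as much noncoding as coding signal. Cars2-202, also a processed transcript, took 33.1, 33.5 and 29.6% of the Cars2 TPM from 129, 136 and 120 counts. Farsb-204, annotated for decay, took 13.7, 15.3 and 15.1% of the Farsb TPM from 321, 381 and 380 counts.

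Spread between libraries was read from the counts. The chi-square test found counts differing between libraries beyond counting error (Benjamini-Hochberg over 13026 genes) for 18 of the 36 members, 13 cytosolic and 5 mitochondrial, against 62.5% of all genes kept. Leaving out replicate 3 left 10, leaving out replicate 2 left 12 and leaving out replicate 1 left 13. The median tagwise biological coefficient of variation, an edgeR estimate of relative spread drawn towards the trend of all genes, was 0.0925 over members. It was 0.122 over all genes kept and 0.118 over genes in the same abundance range.

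The lowest coefficients of variation, which are drawn towards the abundance trend, were those of Farsb, Kars and Tars. Farsb had 38.3, 39.1 and 37.8 CPM scaled by TMM (trimmed mean of M-values) in replicates 1, 2 and 3, and a coefficient of variation of 0.0817. Kars had 32.6, 33.2 and 34.0, and Tars 23.5, 24.5 and 24.9. The highest coefficients were those of the lowest genes, Pars2 at 0.247, Ears2 at 0.214 and Mars2 at 0.210, none of which differed beyond counting error. Scaled CPM of Pars2 were 0.472, 0.510 and 0.708, those of Ears2 2.30, 1.97 and 1.93, and those of Mars2 2.10, 2.08 and 2.48.

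Lars2 stood apart from members of like abundance. It had 23.9, 15.8 and 22.7 scaled CPM, a 1.51-fold range with replicate 2 low, and a coefficient of variation of 0.156 (chi-square adjusted p = 5.49e-27). Iars2, at higher counts, had 47.7, 44.5 and 50.03 scaled CPM. The median member varied by 1.11-fold between its highest and lowest library.

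**Figure D5:**
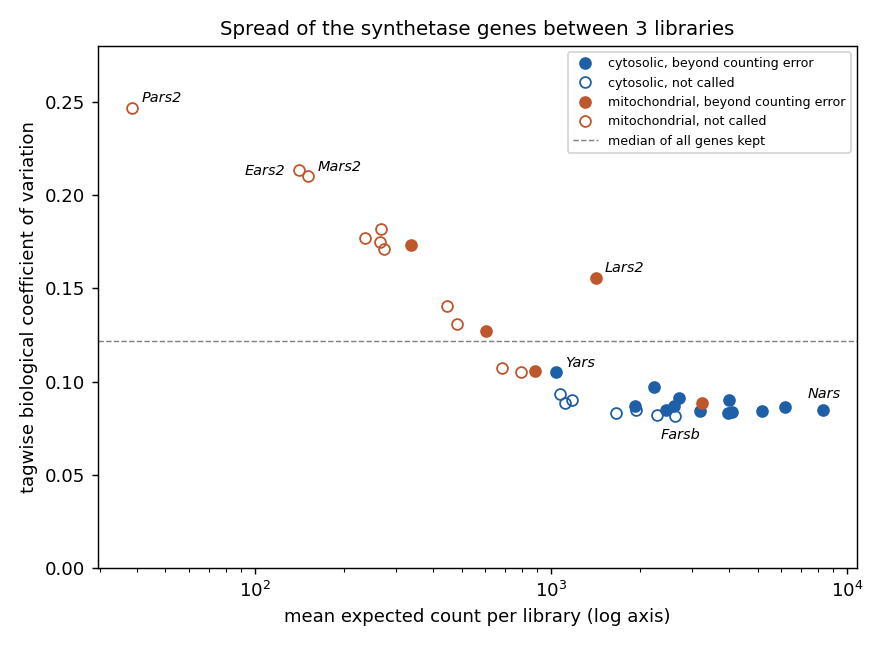
Tagwise biological coefficient of variation against the mean expected count of each gene, on a log axis, with genes beyond counting error filled. Lars2, at 0.156, lies above other members of like count, and the lowest genes, led by Pars2 at 0.247, have the highest values without being called.

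Several members have exons that overlap the annotated span of another gene, introns included. Whether exons of both genes overlap was not tested. No source used here says if strand was used in counting, so reads from any shared bases cannot be assigned with certainty. Hars and Hars2 lie head to head and their annotated spans overlap by 198 bases. Ears2, with 151, 135 and 136 counts, overlaps Ubfd1, with 3107, 3111 and 3241, on the opposite strand. Yars overlaps the opposite-strand gene C77080, with 902, 1059 and 1167 counts for Yars against 13475, 14407 and 13924 for C77080. Mars1 overlaps Ddit3, Iars2 overlaps Rab3gap2, and Cars2 overlaps Naxd, each on opposite strands. The exosome gene Exosc6 lies inside the last exon of Aars-201 on the same strand and was listed at 0 counts in all 3 libraries, while Aars had 4760, 5175 and 5553. Iars2 and Eprs are neighbours on chromosome 1, 33647 bases apart and transcribed away from each other.

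Many cytosolic synthetase genes are known targets of ATF4, a transcription factor of the amino acid response that binds C/EBP-ATF response elements. The letters TGATGNAA, the core of such an element, were searched on both strands of the RefSeq promoter windows (GRCm38.p6, 250 bases before to 50 after the start), which were found for 27 of the 36 members. They occurred in 5 of 13 cytosolic promoters, those of Aars, Gars, Iars, Tars and Yars, and in 0 of 14 mitochondrial ones, against 4.51% of the 27025 genes with a window. One match per gene is shown with 11 bases on either side, 5′ to 3′ in the direction of the gene, with the matched letters in capitals; all but that of Yars are on the reverse strand. The match shown for Aars begins 9 bases after the start, at chr8:111033840-111033869, and another, not shown, begins 112 bases before it. Those of Gars and Tars begin 30 and 15 bases before the start, at chr6:55037960-55037989 and chr15:11399655-11399684. Those of Iars and Yars begin 7 and 3 bases after it, at chr13:49682126-49682155 and chr4:129189895-129189924.
Aars: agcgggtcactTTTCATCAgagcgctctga
Gars: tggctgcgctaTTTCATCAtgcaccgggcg
Iars: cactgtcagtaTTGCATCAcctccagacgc
Tars: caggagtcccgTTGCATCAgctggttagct
Yars: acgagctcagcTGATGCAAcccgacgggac

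A match is a description of letters, not a site. The 5 cytosolic genes with it had mean TPM of 3.39 to 10.2 and none was called above the median gene. The 8 without it had 3.94 to 19.1 TPM, and 3 were called above, against 26.3% of all tested genes. Nars, the highest member, is in neither group because no promoter window was found for it. A difference in level between these groups was not tested. Other motifs were searched in the same way on both strands. The E-box letters CACGTG occurred in 4 cytosolic promoters, of Aars, Farsb, Iars and Tars, and in 1 mitochondrial promoter, of Ears2, against 8.09% of all. The letters GCATGCGC, of the kind bound by NRF1, a regulator of nuclear genes for mitochondria, occurred in 0 cytosolic and 3 mitochondrial promoters, of Rars2, Vars2 and Wars2, against 3.05%. The ETS letters CCGGAAG occurred in 5 cytosolic and 4 mitochondrial promoters, against 9.93%. The GC box letters GGGCGG occurred in 8 and 11, against 38.2%, and TATAAA in 1 and 2, against 15.7%.

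Of 18 listed genes of the amino acid response itself, 5 were called above the median gene, 4 below, 3 were not called and 6 were under 1 TPM, against 26.3% above and 24.5% below over all tested genes. Ppp1r15a, which lets translation resume after stress and had 632, 559 and 271 TPM, was highest. Next came Slc3a2, the heavy chain of amino acid exchangers, with 147, 91.7 and 123 TPM, and Atf4 with 48.1, 33.3 and 34.2 TPM. Nupr1 had 39.1, 30.9 and 18.8 TPM and Ddit3, a transcription factor induced with ATF4, 36.01, 25.3 and 21.3 TPM. Asns, asparagine synthetase and a target of ATF4, was called below at 1.71, 1.39 and 1.62 TPM. The sixth by level, Sesn2, had 3.81, 3.14 and 3.10 TPM and was not called.

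Of the 4 genes of the mitochondrial glutamine route and of formylation, 3 were called: Qrsl1 and Gatb, subunits of the amidotransferase, and Mtfmt, which formylates the initiator methionyl-tRNA, were called below the median gene. They had means of 1.04 ± 0.24, 1.82 ± 0.48 and 1.41 ± 0.24 TPM (SD, n = 3). Gatc, the remaining subunit, had 5.69, 3.83 and 4.39 TPM and was not called. Of the 4 genes that clear mischarged tRNA, Aarsd1, Dtd1 and Dtd2 were called below, at 2.68 ± 0.53, 1.55 ± 0.16 and 2.14 ± 0.30 TPM, and Prorsd1, at 5.89 ± 1.63 TPM, was not called (SD, n = 3). The share called below over all tested genes was 24.5%.

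Elongation factors, which carry charged tRNAs to the ribosome and move them through it, showed the same order of the compartments at other heights. All 5 cytosolic genes were called above, from Eef1d at 28.8 ± 6.2 TPM, through Eef1g at 72.6 ± 13.3, Eef1b2 at 117 ± 33 and Eef2 at 276 ± 58, to Eef1a1 at 1727 ± 324 TPM (SD, n = 3). Of the 4 mitochondrial genes Tsfm was called below, at 2.57 ± 0.60 TPM. Tufm at 9.56 ± 2.12, Gfm1 at 6.29 ± 1.47 and Gfm2 at 4.27 ± 0.96 TPM were not called (SD, n = 3). Over all tested genes 26.3% were called above and 24.5% below, so the mitochondrial share called below was near the background.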

How the data were processed

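Per the file headers, each deposited gene table holds for every gene 1 expected count, 1 TPM and 1 FPKM value, and the deposited transcript table adds each transcript's percent of its gene, in columns named as RSEM names them. A second table, deposited per transcript with kallisto's column names, holds an estimated count and a TPM. The deposited description files name mm10 and GENCODE M21. Aligner, software versions and strand use are not given in the sources available. The members and gene lists were chosen with earlier results of these data known.

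Levels were fitted with limma 3.58.1 (R 4.3.3): log2(TPM + 0.1), centred on the median of protein-coding genes of at least 1 TPM mean in that library, was tested with treat (band of 1 in log2, trended prior, Benjamini-Hochberg at 0.05). This scale understates differences of low genes. Expected counts were rounded, TMM-scaled and filtered with filterByExpr in edgeR 4.0.16 for the biological coefficient of variation and chi-square tests; DESeq2 1.42.0 gave alternative size factors. Lists and pairs have no p, since members were not chosen blind. Scripts were tested on simulated data. Tables used Python 3.11.15, numpy 2.4.6 and pandas 2.3.3.

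Values per library are given for the 8 highest and 4 lowest members by mean TPM, members called where the counterpart was not, the 3 highest and 3 lowest coefficients of variation, Gars, Kars and Wars. Other lists are named whole up to 5 genes, otherwise by their 6 highest. Farsa, Fars2, Iars, Iars2, Lars2, Sars2, Yars, Asns and the transcripts were chosen after their values were seen. Rows that are not annotated genes held 0.260, 0.0933 and 0.0577% of counts and were left out. Promoters, annotation and synonyms came from RefSeq and GENCODE tables of GRCm38. Some items are not reported here.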

Additional observations from a re-analysis of the deposited data

How the results depend on the processing

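No paired analysis was possible because all libraries belong to 1 group. The cytosolic minus mitochondrial median difference, 2.55 on the log2 scale, kept its sign in every setting run. It was 2.43 with the second quantification, 2.01 with a pseudocount of 1, 1.498 over genes of at least 1 TPM and 0.82 over those of at least 5 TPM, 2.45 without Gars and Kars, 2.68 from CPM, and 2.51 to 2.60 when 1 replicate was left out. Filters take out the lowest mitochondrial genes, which by construction narrows it. Leaving out Mars1 and Mars2, an alternative chosen after seeing the data, gave 2.55. Cytosolic genes called above numbered 2 with the second quantification, 13 with no minimum, 0 at a 5 TPM minimum, and 4 with any 1 replicate left out. Those called below numbered 2 with the second quantification and 2 at 5 TPM. Mitochondrial genes called above numbered 1 with no minimum (Fars2). Those called below, 5 of 10 tested, numbered 2 of 6 tested with the second quantification. With TPM rescaled over nuclear protein-coding genes they numbered 8 of 14, and with FPKM 7 of 13. With no minimum they numbered 7 of 16, but of the first 5 only Vars2 stayed called. At 5 TPM they numbered 1 of 2, and with 1 replicate left out 4 or 5. The Lars to Lars2 log2 ratio reversed to -1.19 with the second quantification; the cause was not tested. Tars to Tars2, of mixed sign over libraries at -0.03, was 0.10 there. Members beyond counting error numbered 10 to 13 with 1 replicate left out, which tests fewer samples, 19 with DESeq2 size factors and 14 with no count filter. Mitochondrial genes under 1 TPM rest on 31 to 369 counts per library.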
